A study of Mus musculus with 120 samples.

Results

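The genes described here are 10 receptor subunits through which group 2 innate lymphoid cells (ILC2) sense cytokines and alarmins, out of 46078 genes counted in each of 120 single mouse ILC2. The genes were taken by name: Il1rl1 and Il1rap (IL-33 receptor), Il2ra, Il2rb and Il2rg (IL-2 receptor), Il7r, Crlf2, Il17rb, Il4ra and Il9r. They include the receptors of the stimuli used, IL-33 and IL-2. The cells came from the pooled mesentery of 20 wildtype C57BL/6 mice, were sorted as lineage-negative, c-Kit+ Sca-1+ cells and were kept in culture with IL-2 before imaging. Untreated cells were picked before stimulation (pre-stimulation, 5 cells for each of 2 indexes). All other cells were incubated with IL-2 and IL-33 while the secretion of 1 cytokine, IL-13 or IL-5, was imaged; that cytokine is called the index. For each index, 11 cells each were picked 30, 60 and 90 min after the onset of secretion (transition state). At the end of the imaging, 11 cells secreting the index (activated) and 11 not secreting it (silent) were picked, which gives 12 groups. The word silent therefore says nothing of the other cytokine. Because mice were pooled and cells were cultured, no cell can be traced to an animal, and cultured cells exposed to IL-2 stand in for tissue ILC2.

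Cytokine receptors of this kind work as pairs or trios of chains. IL1RL1 (ST2) binds IL-33, an alarmin released by damaged tissue, and signals once IL1RAP joins it, through MYD88 and IRAK kinases to NF-kB. The IL-2 receptor has an alpha chain that raises affinity (IL2RA, CD25), a beta chain (IL2RB) and the common gamma chain (IL2RG), which is also used by the IL-4, IL-7 and IL-9 receptors, and it signals through JAK kinases and STAT5. TSLP uses CRLF2 with IL7R, and IL-25 uses IL17RB with IL17RA. In fat and mucosal tissues, IL-33, IL-25, TSLP, IL-2 and IL-7 are known as signals that maintain or activate ILC2.

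Upstream sequence is given for the chain whose level differed most often between states (Il2ra), for its partner chain Il2rg and for the IL-33-binding chain (Il1rl1). Each run is the 250 bases before the gene's annotated start on GRCm38.p6 (RefSeq), written along the gene's strand; capitals mark a match to a motif searched on both strands. The windows are chr2:11642542-11642791 (plus strand) for Il2ra, chrX:101268256-101268505 (minus strand) for Il2rg and chr1:40429320-40429569 (plus strand) for the first of 2 annotated starts of Il1rl1.
Il2ra: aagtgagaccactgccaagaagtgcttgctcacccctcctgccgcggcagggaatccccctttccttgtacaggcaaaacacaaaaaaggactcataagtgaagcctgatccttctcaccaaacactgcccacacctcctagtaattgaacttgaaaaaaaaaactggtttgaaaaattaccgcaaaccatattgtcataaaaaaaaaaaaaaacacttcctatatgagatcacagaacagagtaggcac
Il2rg: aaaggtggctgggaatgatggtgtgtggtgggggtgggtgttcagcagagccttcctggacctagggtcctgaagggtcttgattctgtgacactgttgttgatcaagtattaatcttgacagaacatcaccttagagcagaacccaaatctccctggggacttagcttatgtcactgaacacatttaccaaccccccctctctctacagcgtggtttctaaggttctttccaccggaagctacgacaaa
Il1rl1: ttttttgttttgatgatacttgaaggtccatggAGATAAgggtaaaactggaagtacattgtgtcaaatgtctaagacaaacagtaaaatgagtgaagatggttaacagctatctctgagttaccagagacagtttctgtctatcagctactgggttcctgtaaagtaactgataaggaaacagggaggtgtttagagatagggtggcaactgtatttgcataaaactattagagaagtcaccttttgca
The motifs were the NF-kB type (GGGA, any 2 bases, then TTCC), which 1.21% of 32851 RefSeq windows of this length hold, the STAT type TTCNNNGAA (7.02%), the AP-1 type TGANTCA (6.75%) and the GATA type AGATAA (9.99%). Windows were found for 9 of the 10 genes (not Il2rb). The Il1rl1 window holds AGATAA 217 to 212 bases before the start. Those of Il2ra and Il2rg hold no match to these exact patterns in these 250 bases. Looser forms of the motifs were not searched, such as the gggaatcccc in the Il2ra window. Among the other members, Il7r has the STAT match TTCAGGGAA, Il17rb the AP-1 match TGAGTCA, and Il9r has 2 GATA matches. These are matches of letters only, and the 3' end libraries measure no promoter.

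Cells had a median of 254001 gene reads (range 65 to 785198), and 6 cells lay below 84667 reads, the median divided by 3. These shallow cells are 1 cell each of the IL-5 index 30, 60 and 90 min and silent groups and 2 of the IL-13 index 90 min group. Their own CPM (reads scaled to 1000000 gene reads of a cell or group) are unreliable, and 2 of them hold under 100 reads, so ranges over cells below leave all 6 out, while group values use the summed reads of all cells. At 90 min of the IL-13 index the 14 Il9r reads all came from a shallow cell. All 13 ILC2 marker genes were detected, with a summed level between 4110 and 11339 CPM by group. B cell (4 of 4) and NK or ILC1 markers (4 of 4) were at 0 in all cells, as were 5 of 7 mast cell, 4 of 5 myeloid, 4 of 5 stromal and 3 of 9 T cell markers (Cd4, Cd8a and Cd8b1). The other T cell markers summed to between 327 and 1884 CPM by group and were highest before stimulation in the IL-5 index. Mast cell markers summed to at most 326 CPM and ILC3 markers to at most 344 CPM. The summed ILC2 markers were highest before stimulation and lowest in activated IL-13 index cells. Whether these marker levels have a part in the receptor results was not tested.

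No label ties a cell to its animal or culture dish, and cells of a group are not replicates of a condition, so each group is 1 sample and no test was made. A group's level is the CPM of its summed reads with an exact 95% Poisson interval, and a difference is a log2 ratio of CPM with an exact counting interval. Reads carry no molecular identifiers, so intervals cover counting error only. A gene was called higher or lower where the ratio was at least 2-fold, the higher group had at least 20 CPM, and leaving out any 1 cell kept the direction of the CPM, judged without the floor described next. A gene whose reads in the higher group came from 1 cell could therefore not be called. A group with under 3 reads was set to 3 reads in a ratio. Titles hold 2 dates per index, with pre-stimulation cells on the first only; the dates differ between indexes, so index and date cannot be told apart and groups are compared within an index.

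Across the 120 cells, a read was found for Il2rg in 117 cells, Il1rl1 in 113, Il2ra in 113, Il2rb in 95, Crlf2 in 52, Il7r in 46, Il4ra in 24, Il9r in 19, Il17rb in 13 and Il1rap in 3. The members therefore fell into 4 chains present in most cells and 6 present in a minority. Levels are compared only within a gene.

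**Figure D1:**
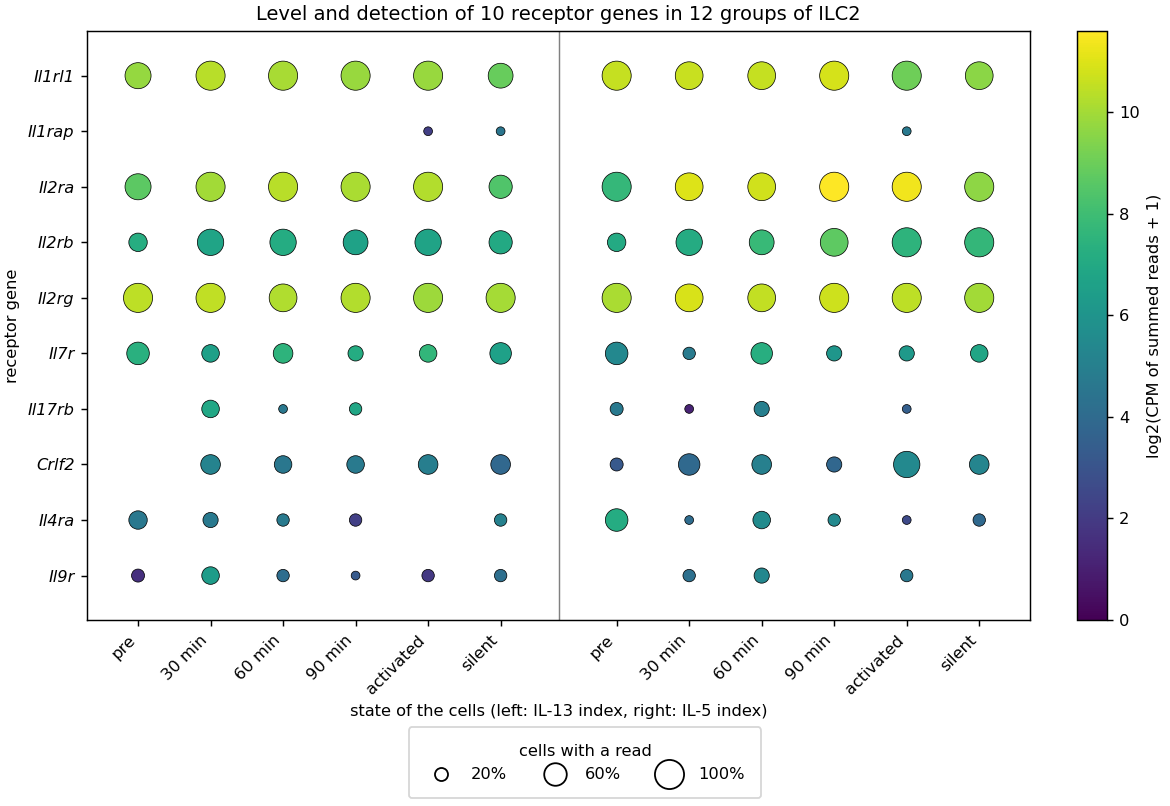
Level and detection of the 10 receptor genes in the 12 groups. Columns are states (IL-13 index left, IL-5 index right), color is log2(CPM of summed reads + 1), dot area is the share of cells with a read, and no dot means 0 reads. Il2ra is highest at 90 min and in activated IL-5 index cells (3095 and 2566 CPM), and Il1rap has reads in 3 groups only.

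The same 5 comparisons were made in each index, and they share groups, so calls of a gene in several of them are not separate evidence. Between 7 and 10 of the 10 members reached 20 CPM in a group of a comparison and were tested. At 30 min against pre-stimulation, 4 members were called higher and 0 lower in the IL-13 index, where 30.4% of 5578 genes tested were called higher and 16.5% lower. In the IL-5 index it was 1 higher and 1 lower, beside 33.2% and 16.6% of 5738 genes. For activated against pre-stimulation, 2 members were higher and 1 lower in the IL-13 index (33.9% and 16.7% of 5523 genes), and 3 higher and 2 lower in the IL-5 index (35.5% and 18.7% of 5630 genes). For silent against pre-stimulation, 0 members were called in the IL-13 index (33.4% higher and 12.6% lower of 5952 genes), and 3 were higher and 1 lower in the IL-5 index (33.8% and 15.6% of 5794 genes). For activated against silent, 2 members were higher and 1 lower in the IL-13 index (20.6% and 25.6% of 5897 genes), and 2 higher and 0 lower in the IL-5 index (18.9% and 21.6% of 5499 genes). For 30 min against activated, 3 members were higher and 0 lower in the IL-13 index (23.8% and 27.5% of 5529 genes), and 1 higher and 1 lower in the IL-5 index (23.8% and 21.8% of 5508 genes). Calls were thus common over all genes, and the counts of members are near that background in most comparisons. The median log2 ratio of all genes tested was 0.48 for silent against pre-stimulation and -0.33 for activated against silent in the IL-13 index, and within 0.15 of 0 elsewhere.

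Il1rl1, on chromosome 1 (40429570 to 40465415, plus strand, GRCm38; ENSMUSG00000026069), encodes the chain that binds IL-33. Its reads sum the membrane and soluble forms, which a gene count does not separate. Before stimulation, the 5 IL-5 index cells had 1567, 1960, 1631, 904 and 1587 CPM. The 5 IL-13 index cells had 297, 456, 2968, 0 and 894 CPM. The first set is tight and the second spans from no read to nearly 3000 CPM. Activated IL-5 index cells had a lowest value of 152, a median of 374 and a highest of 1346 CPM. None of these 11 cells reached the pre-stimulation median of 1587 CPM, although the groups overlap because of pre-stimulation cell 4. At 30 min, the 10 IL-5 index cells spanned 219 to 3954 CPM with a median of 1289 CPM.

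In summed reads, Il1rl1 stood at 1524 CPM (interval 1455 to 1595) before stimulation in the IL-5 index, at 1586 CPM at 30 min, 1511 CPM at 60 min and 1824 CPM at 90 min. The log2 ratio of 30 min to pre-stimulation was 0.06 over both title dates and -0.89 on the first. It was lower in activated cells, at 525 CPM (502 to 549), a log2 ratio to pre-stimulation of -1.54 (counting interval -1.63 to -1.44, -1.85 to -1.39 on leaving out 1 cell). On the first title date alone the ratio was -1.58. The 30 min cells were 3.02-fold above activated cells of this index (log2 1.59), with 0.68 on the first title date and 2.02 on the second. In silent IL-5 index cells the level was 767 CPM, a log2 ratio to pre-stimulation of -0.99. It was -2.79 on the first title date, the date of the pre-stimulation cells, and -1.79 without silent cell 11, which holds 48.0% of the reads. Activated against silent cells of this index gave opposite directions by date, 1.21 on the first and -1.36 on the second.

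In the IL-13 index Il1rl1 was not called in any of the 5 comparisons. Levels ran from 863 CPM before stimulation through 1308, 1064 and 898 CPM at 30, 60 and 90 min to 895 CPM in activated and 481 CPM in silent cells. Pre-stimulation cell 3 held 58.8% of that group's Il1rl1 reads. Leaving it out moved the log2 ratio to pre-stimulation from 0.60 to 1.61 at 30 min and from 0.05 to 1.06 in activated cells, both past 2-fold, while on the first title date these ratios were -0.041 and -0.94. The activated value rests heavily on 1 cell with 5044 CPM, which holds 40.6% of the group's Il1rl1 reads, while the median cell had 345 CPM. Ordered over the 12 groups, the lowest levels were silent IL-13 index (481 CPM), activated IL-5 index (525 CPM) and silent IL-5 index (767 CPM), and the highest was 90 min of the IL-5 index (1824 CPM). Single cells of each group overlap with those of the next group in this order, which spans both indexes and hence their dates.

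Il1rap (chromosome 16, 26581704 to 26730117, plus strand; ENSMUSG00000022514) encodes the accessory chain without which the IL-33 receptor does not signal. Reads were found in 1 activated cell of the IL-13 index (26.9 CPM), 1 silent cell of the IL-13 index (242 CPM) and 1 activated cell of the IL-5 index (289 CPM). In the other 9 groups there were 0 reads, for which the upper limit of the exact interval is 1.04 to 3.83 CPM by group. Il1rap was called in 0 of 10 comparisons. Both chains of the IL-33 receptor were seen in the same cell in 2 of 113 cells after each cell was thinned to 100000 reads (1.77%, exact binomial interval 0.215 to 6.25%). Detection in these 3' end libraries does not show whether a chain's transcript is absent or below the limit.

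Il2ra (chromosome 2, 11642807 to 11693193, plus strand; ENSMUSG00000026770) encodes CD25, the inducible alpha chain that gives the IL-2 receptor high affinity. It was the member that differed most often between states: higher in 7 of 10 comparisons and lower in 0. Pre-stimulation IL-13 index cells had 382, 0, 650, 895 and 185 CPM. Pre-stimulation IL-5 index cells had 15.0, 22.8, 419, 290 and 247 CPM. In the IL-5 index, leaving out shallow cells, every cell at 30, 60 and 90 min and every activated cell lay above these 5 cells.

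At 30 min in the IL-5 index the 10 cells ranged from 871 to 3171 CPM with a median of 2093 CPM, so all 10 lay above every pre-stimulation cell. All 11 activated cells did too, with 773 CPM as the lowest, 2633 as the median and 5034 as the highest. Silent cells of this index overlapped with pre-stimulation cells: they ranged from 112 to 2772 CPM with a median of 605 CPM, and 6 of 10 lay above every pre-stimulation cell. In the IL-13 index the groups overlapped throughout. There the 30 min cells ranged from 316 to 2185 CPM (median 925 CPM) and 6 of 11 lay above every pre-stimulation cell. Activated cells ranged from 145 to 3385 CPM (median 556 CPM), with 5 of 11 above every pre-stimulation cell. Silent IL-13 index cells ranged from 0 to 1432 CPM (median 151 CPM), and 4 of 11 had no Il2ra read.

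In summed reads, Il2ra of the IL-5 index went from 213 CPM (188 to 240) before stimulation to 2044 CPM (1997 to 2092) at 30 min, a 9.60-fold difference. The log2 ratio was 3.26 (counting interval 3.08 to 3.45, 2.88 to 3.72 on leaving out 1 cell). Of the 10 receptors, Il2ra was the 1 called higher here and Il4ra the 1 called lower. A larger log2 ratio than that of Il2ra was found for 23.9% of the genes tested. The level was 1714 CPM at 60 min, 3095 CPM at 90 min and 2566 CPM in activated cells, 12.1-fold above pre-stimulation (log2 3.59). At 90 min, cell 7 had 13009 CPM and held 28.4% of the reads. Silent cells had 801 CPM, 3.76-fold above pre-stimulation (log2 1.91, counting interval 1.73 to 2.10).

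In the IL-13 index, Il2ra went from 406 CPM (367 to 449) before stimulation to 1010 CPM (972 to 1049) at 30 min, 2.49-fold (log2 1.31, 1.04 to 1.74 on leaving out 1 cell). Il17rb, Crlf2 and Il9r were the other members called higher. Levels of 1296 CPM at 60 min, 1109 CPM at 90 min and 1226 CPM in activated cells followed. The activated cells were 3.02-fold above pre-stimulation (log2 1.59, and 1.18 on the first title date alone). Silent cells of this index had 339 CPM, and the log2 ratio to pre-stimulation was -0.26 (counting interval -0.44 to -0.09), which is not past 2-fold. Without silent cell 7, which holds 51.0% of the group's Il2ra reads, that ratio was -1.11.

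Activated and silent cells had both received IL-2 and IL-33 and differed in the imaged secretion. Silent refers to the index alone, so the silent groups of the 2 indexes are not alike. The highest Il13 level of a cell was 5162 CPM in the silent IL-5 index group and 58.5 CPM in the silent IL-13 index group. Il2ra was higher in activated cells in both indexes, 3.62-fold for IL-13 (log2 1.86, counting interval 1.75 to 1.96) and 3.20-fold for IL-5 (log2 1.68, counting interval 1.62 to 1.74). Without silent cell 7 the IL-13 ratio was 2.70. The difference was present on each title date: 1.44 and 2.08 for IL-13, 1.46 and 1.97 for IL-5, all as log2 ratios. In the IL-13 index 10 of 11 activated cells lay above the median silent cell, as did 11 of 11 for IL-5. Single cells still overlapped, since 4 of 11 and 5 of 11 activated cells lay above every silent cell. For activated against silent IL-13 index cells, rescaling the cells with TMM or DESeq2 size factors gave 2.04 or 2.13 for Il2ra and called 4 members higher, with Il1rl1 and Il7r in addition to Il2ra and Crlf2. A larger log2 ratio than that of Il2ra was found for 15.6% of genes (IL-13 index) and 13.9% of genes (IL-5 index).

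From 30 min to the activated state Il2ra was not called. The 30 min level was slightly below the activated level in both indexes, with log2 ratios of -0.28 (IL-13 index) and -0.33 (IL-5 index). Over the 12 groups the order of Il2ra levels ran from pre-stimulation IL-5 index (213 CPM), silent IL-13 index (339 CPM), pre-stimulation IL-13 index (406 CPM) and silent IL-5 index (801 CPM) to the transition and activated groups. All 8 transition and activated groups lay above the 4 others. The 4 groups of the IL-13 index had 1010 to 1296 CPM and the 4 of the IL-5 index 1714 to 3095 CPM, a gap in which index and date cannot be told apart. Neighbouring groups in this order overlap in their single cells.

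A second gene, Gm37881, lies on the same strand within the Il2ra locus and made up at most 6.32% of the reads of both genes in a group. With its reads added, the 7 log2 ratios past 2-fold kept their direction and stayed past 2-fold. This setting was chosen after seeing the data.

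Il2rb (chromosome 15, 78479256 to 78495271, minus strand; ENSMUSG00000068227) encodes the signalling beta chain shared with the IL-15 receptor. It was called in 0 of 10 comparisons. Group levels lay between 101 and 221 CPM except for 419 CPM at 90 min of the IL-5 index, where cell 1 with 1932 CPM held 33.6% of the reads. Before stimulation 2 of 5 cells of each index had a read, with values of 85.3 and 734 CPM in the IL-13 index and 346 and 188 CPM in the IL-5 index. In activated cells 9 of 11 (IL-13 index) and 11 of 11 (IL-5 index) had a read, and in silent cells 7 of 11 and 11 of 11. The exact intervals of these shares overlap after thinning (5.27 to 85.3% before stimulation and 48.2 to 97.7% in activated IL-13 index cells). The pre-stimulation value of the IL-13 index rests on cell 3, which holds 85.2% of the Il2rb reads, and leaving it out moved the log2 ratio of 30 min to pre-stimulation from -0.42 to 2.06.

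Il2rg (chromosome X, 101264378 to 101268255, minus strand; ENSMUSG00000031304) is the common gamma chain. Its levels ranged from 945 CPM (activated, IL-13 index) to 1888 CPM (30 min, IL-5 index). The 5 pre-stimulation cells had 1836, 385, 552, 1031 and 2667 CPM in the IL-13 index. In the IL-5 index they had 1724, 630, 1299, 1231 and 1116 CPM. Activated IL-5 index cells spanned 441 to 2436 CPM around a median of 1323 CPM, within which all 5 pre-stimulation cells of that index fall. No comparison of Il2rg passed 2-fold. The largest log2 ratio was 0.74, for 30 min against pre-stimulation in the IL-5 index, and the smallest was -0.58, for activated against pre-stimulation in the IL-13 index.

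**Figure D2:**
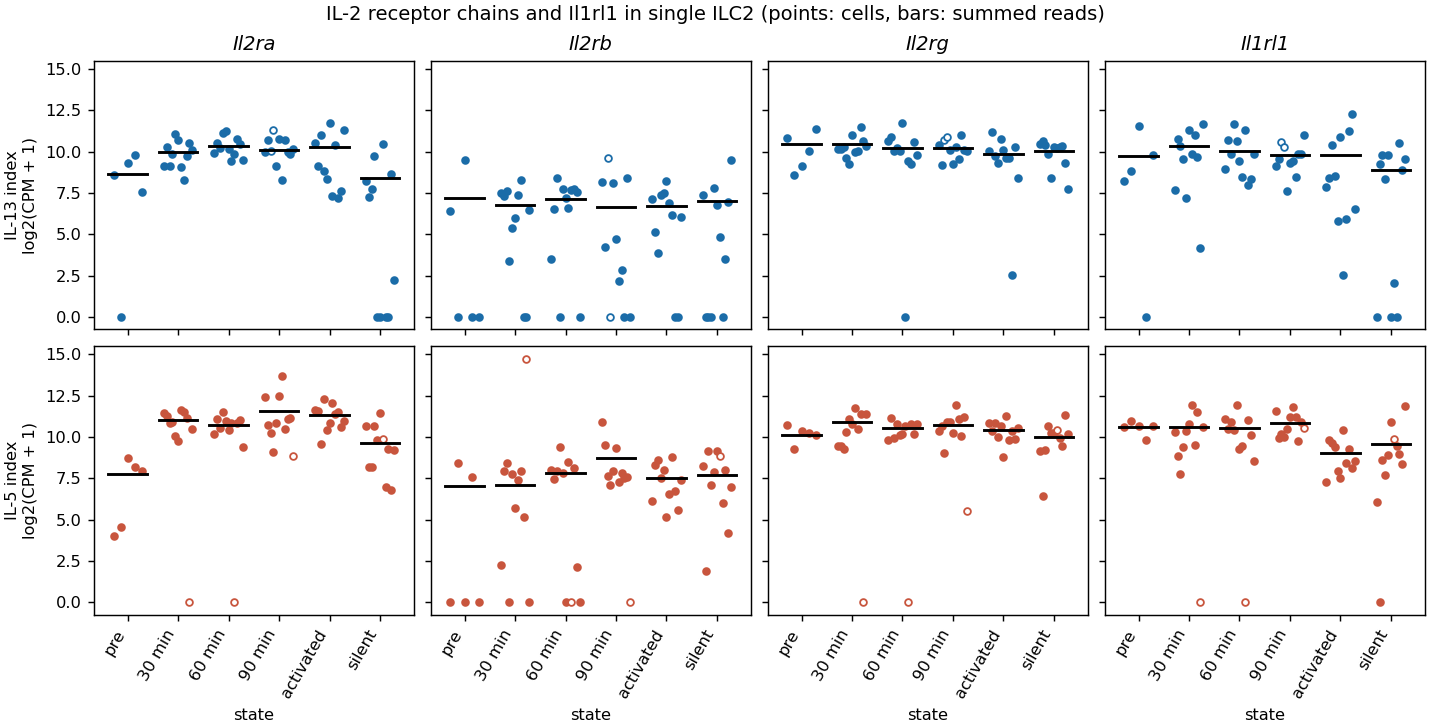
The IL-2 receptor chains and Il1rl1 in single cells, as log2(CPM + 1), with the IL-13 index above and the IL-5 index below. Points are cells, open points are the 6 shallow cells (including the highest Il2rb point, a cell of 73 gene reads), and black bars are the CPM of summed reads. In the IL-5 index the filled Il2ra points at 30, 60 and 90 min and in activated cells lie above the 5 pre-stimulation cells, and Il2rg points overlap in all states.

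**Figure D3:**
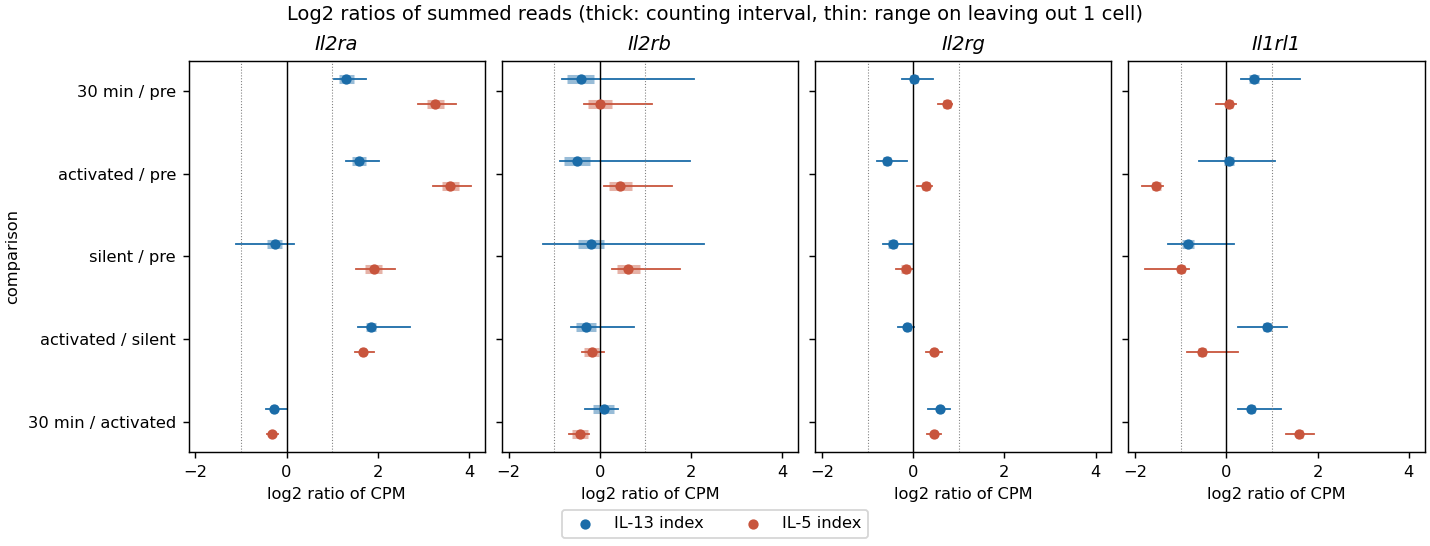
Log2 ratios of CPM for the same 4 genes in the 5 comparisons. Points are ratios (blue IL-13 index, red IL-5 index), thick lines exact 95% counting intervals, thin lines the range on leaving out 1 cell, and dotted lines 2-fold. Il2ra is past 2-fold in 7 of 10 comparisons, and Il2rb and Il2rg in 0.

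With each cell thinned to 100000 reads, a read of all 3 IL-2 receptor chains was found in 85 of 113 cells (75.2%, exact binomial interval 66.2 to 82.9%). Before stimulation 2 of 5 cells of each index had all 3 chains. For IL-13 as index, 9 of 11 cells at 30 min, 8 of 11 at 60 min, 5 of 8 at 90 min, 9 of 11 activated and 3 of 11 silent cells did. Under the IL-5 index, these were 8 of 10, 8 of 10, 10 of 10, 11 of 11 and 10 of 10. Silent IL-13 index cells therefore had the lowest share, 27.3% (6.02 to 61.0%), and its interval overlaps with that of activated cells of the same index, 81.8% (48.2 to 97.7%). Without thinning the 2 shares were 36.4% and 81.8%.

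The chains that bind the stimuli themselves, Il1rl1 for IL-33 and Il2ra for IL-2, were also counted together, a pair chosen after their values were seen. Leaving out the shallow cells, every cell of 9 groups had a read of both. The exceptions were pre-stimulation IL-13 index cells (3 of 5), silent IL-13 index cells (6 of 11) and silent IL-5 index cells (9 of 10). Among the silent IL-13 index cells, 2 had a read of Il1rl1 alone, 1 of Il2ra alone and 2 of neither.

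Il7r (chromosome 15, 9505788 to 9530176, minus strand; ENSMUSG00000003882) encodes the IL-7-binding chain, which also pairs with CRLF2 for TSLP. A read was found in 2 to 6 cells of each group. Where present it reached 1534 CPM in an activated cell of the IL-13 index, and group levels ranged from 26.2 CPM (30 min, IL-5 index) to 196 CPM (activated, IL-13 index). Both ends rest on 1 cell, since cell 11 held 98.9% of the reads of the former and cell 10 held 56.3% of the latter. Without that cell 10 the log2 ratio of activated to pre-stimulation in the IL-13 index was -0.81 in place of 0.28. It was called once, as higher in silent than in pre-stimulation IL-5 index cells (111 against 42.1 CPM, log2 1.40). The pre-stimulation cells there had 0, 6.52, 79.3, 95.5 and 0 CPM, and in silent cells 4 of 11 had a read, from 2.79 to 620 CPM. Without silent cell 9 the ratio was 0.20, without pre-stimulation cell 4 it was 2.15, and against the pre-stimulation cells of both indexes it was 0.22. Il7r and Il2rg, the chains of the IL-7 receptor, were found together in 41 of 113 thinned cells (36.3%).

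Crlf2 (chromosome 5, 109554709 to 109558993, minus strand; ENSMUSG00000033467) encodes the TSLP-binding chain. It had 0 reads in the 5 pre-stimulation IL-13 index cells and 34.1 CPM in 1 of 5 of the IL-5 index. In stimulated groups 3 to 9 of 11 cells had a read. In activated IL-5 index cells it was 9 of 11 (up to 95.3 CPM), and 7 of 11 after thinning to 100000 reads, beside 6 of 10 at 30 min of the same index. Among IL-13 index cells, the summed level was 35.5 CPM at 30 min and 29.1 CPM in activated cells. With the 0 of pre-stimulation set to 3 reads over the group, these were 11.4-fold and 9.36-fold higher. The latter, a log2 ratio of 3.23, was 4.51 on the first title date. For IL-5 as index, it was 42.3 CPM in activated and 38.2 CPM in silent cells against 8.25 CPM before stimulation (log2 2.36 and 2.21). Without the 1 pre-stimulation cell with reads they were 3.70 and 3.55, against the 3-read floor. The activated ratio was 0.99 on the first title date, the date of the pre-stimulation cells. Silent cell 8 held 67.5% of that group's Crlf2 reads, and without it the silent ratio was 0.79, short of 2-fold. In 3 comparisons its call was not kept and the sign of the ratio differed on a single title date: activated against silent IL-13 index cells was 1.10 over both dates and -1.62 on the second, silent against pre-stimulation of the IL-5 index was -0.42 on the first, and 30 min against activated of the IL-5 index was -1.59 over both and 0.030 on the first. Crlf2 and Il7r were seen together in 16 of 113 thinned cells (14.2%).

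Il17rb (chromosome 14, 29996135 to 30008896, minus strand; ENSMUSG00000015966) encodes the chain that gives the IL-25 receptor its specificity. It overlaps Actr8 on the opposite strand, and the strand setting of the counting is not given in the sources used here, so reads of the overlap may be shared. Reads were found in 13 cells. With IL-13 as the index, these were 4 cells at 30 min (952, 340, 139 and 3.26 CPM), 1 at 60 min (512 CPM) and 2 at 90 min (514 and 619 CPM). Pre-stimulation, activated and silent cells of that index had 0 reads. With 0 set to 3 reads over the group, the summed 30 min level of 120 CPM was 38.5-fold higher than pre-stimulation and 128-fold higher than activated cells. Leaving out cell 6, the source of 62.6% of the Il17rb reads at 30 min, moved the log2 ratios from 5.27 to 3.97 and from 7.00 to 5.69. Against the pre-stimulation cells of both indexes the first was 3.12. All 4 of those 30 min cells carry the second title date, and none of the 5 cells of the first date had a read. Among IL-5 index cells, the level was at most 30.4 CPM (60 min) and no comparison was called. There the 30 min level was below pre-stimulation (1.13 against 24.7 CPM, log2 -4.46), the opposite direction to the IL-13 index. Those pre-stimulation reads came from 1 cell, without which that group has 0 reads, so the difference was not called. For 30 min against activated the log2 ratio was 7.00 (IL-13 index, with the 3-read floor) and -3.14 (IL-5 index). These differences between indexes were not tested. Il17ra, the shared chain, ranged from 5.32 to 99.0 CPM, and both chains were found in 3 of 113 thinned cells (2.65%).

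Il4ra (chromosome 7, 125552120 to 125579474, plus strand; ENSMUSG00000030748) encodes the chain common to the IL-4 and IL-13 receptors. In contrast to Il2ra it was lower in 5 comparisons and higher in 1. Pre-stimulation IL-5 index cells had 0, 137, 0, 205 and 308 CPM, so 3 of 5 had reads. At 30 min 1 of 11 cells had a read (175 CPM), as did 1 of 11 activated cells (57.9 CPM) and 2 of 11 silent cells, the highest at 73.0 CPM. Summed levels were 139 CPM (118 to 161) before stimulation and 15.5, 5.09 and 14.0 CPM in the 30 min, activated and silent groups, log2 ratios of -3.16, -4.77 and -3.30. Levels of 46.0 and 42.6 CPM at 60 and 90 min lay between. On the first title date alone the 3 ratios were -1.97, -3.53 and -3.11. Without the 1 cell with reads at 30 min or in the activated group, that group was at 0 and the floored ratios were -7.22 and -7.30, and without silent cell 5 the silent ratio was -4.46. Under the IL-13 index, Il4ra was at 23.8 CPM before stimulation in 2 of 5 cells and at 0 reads in all 11 activated cells. This was 25.4-fold lower with 0 set to 3 reads over the group. Pre-stimulation cell 3 held 87.0% of those 23 reads; without it 3 reads were left and no ratio was formed, so that call rests on the 1 cell. It was at 31.7 CPM in silent cells, in 2 of 11 cells, 33.8-fold above activated cells with the same floor. Silent cell 9 held 63.1% of these, and leaving it out, the log2 ratio of activated against silent was -3.81 in place of -5.08. The 1 comparison in which it was higher was 30 min (24.7 CPM) against activated of this index, a log2 ratio of 4.71 with the floor and 3.00 without 30 min cell 11. On the first title date this ratio was 1.08 and not called, and on the second 4.55. For the other calls of Il4ra in this index, activated against pre-stimulation was -3.32 on the first date and -6.55 against the pre-stimulation cells of both indexes, and activated against silent was -3.83 on the first date.

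The partner of Il4ra in the type II receptor, Il13ra1, through which IL-13 itself signals, had 0 reads in all 120 cells. A type I receptor pair (Il4ra and Il2rg) was found in 22 of 113 thinned cells (19.5%) and a type II pair in 0 of 113, for which the exact interval reaches 3.21%.

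Il9r (chromosome 11, 32187541 to 32200279, minus strand; ENSMUSG00000020279) encodes the IL-9-binding chain. Its highest group level was 81.8 CPM at 30 min of the IL-13 index, from 4 of 11 cells with 476, 387, 114 and 5.10 CPM. Before stimulation that index had 2 reads in 1 cell, and the log2 ratio without a floor was 5.30 (counting interval 3.43 to 8.36). Activated IL-13 index cells had 2.82 CPM, 29.0-fold below the 30 min cells, whose log2 ratio to them was 4.86. Without 30 min cell 10, which holds 51.1% of the reads, this ratio was 3.96 and the floored ratio to pre-stimulation 3.82 in place of 4.72. Without activated cell 3 the former was 5.93. On the first title date the ratio to activated cells was 3.55 and that to pre-stimulation 4.75, and neither was called. With IL-5 as the index, the level was 18.0 CPM at 30 min and 40.1 CPM at 60 min, where cell 10 held 83.9% of the reads. Activated cells of this index had 24.1 CPM. That was 9.74-fold above pre-stimulation and 24.6-fold above silent cells, both at 0 and set to 3 reads over the group. The activated level comes from 2 of 11 cells, of which cell 11 holds 82.2% of the reads. Without cell 11 the log2 ratio to pre-stimulation was 0.93 in place of 3.28 and the one to silent cells 2.26 in place of 4.62. On the first title date the 2 ratios were 2.03 and 2.44. The ligand gene Il9 was at 1000 CPM or more in 18 cells outside the shallow ones, and 3 of these had an Il9r read, as did 15 of the other 96 cells.

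**Figure D4:**
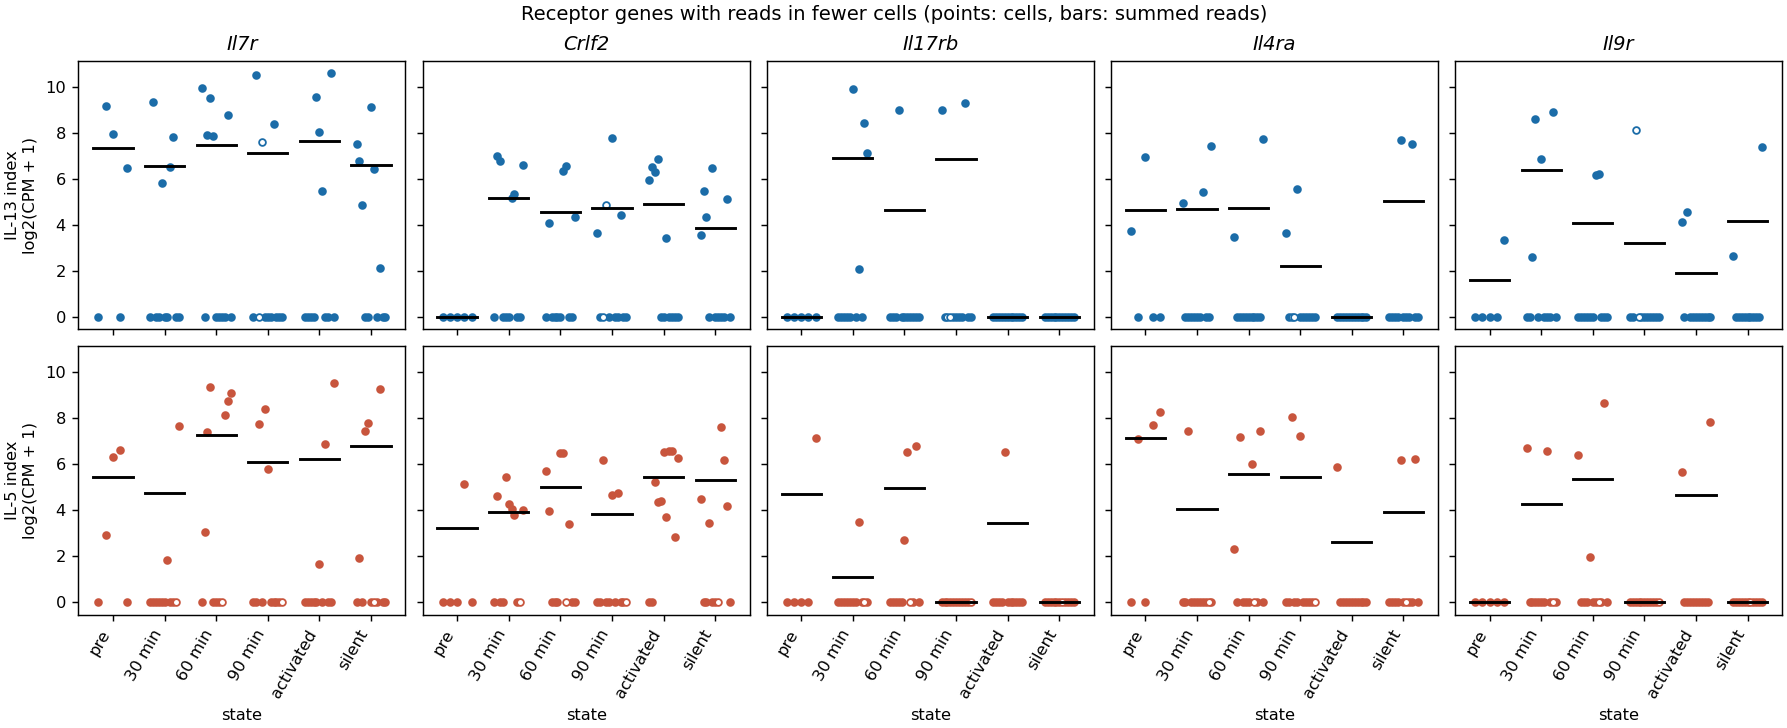
The receptor genes with reads in fewer cells, as log2(CPM + 1) per cell, with the IL-13 index above and the IL-5 index below. Points are cells, open points shallow cells and black bars the CPM of summed reads. Il17rb reads in the IL-13 index sit at 30, 60 and 90 min only, and Il4ra is at 0 in the 11 activated cells of that index.

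**Figure D5:**
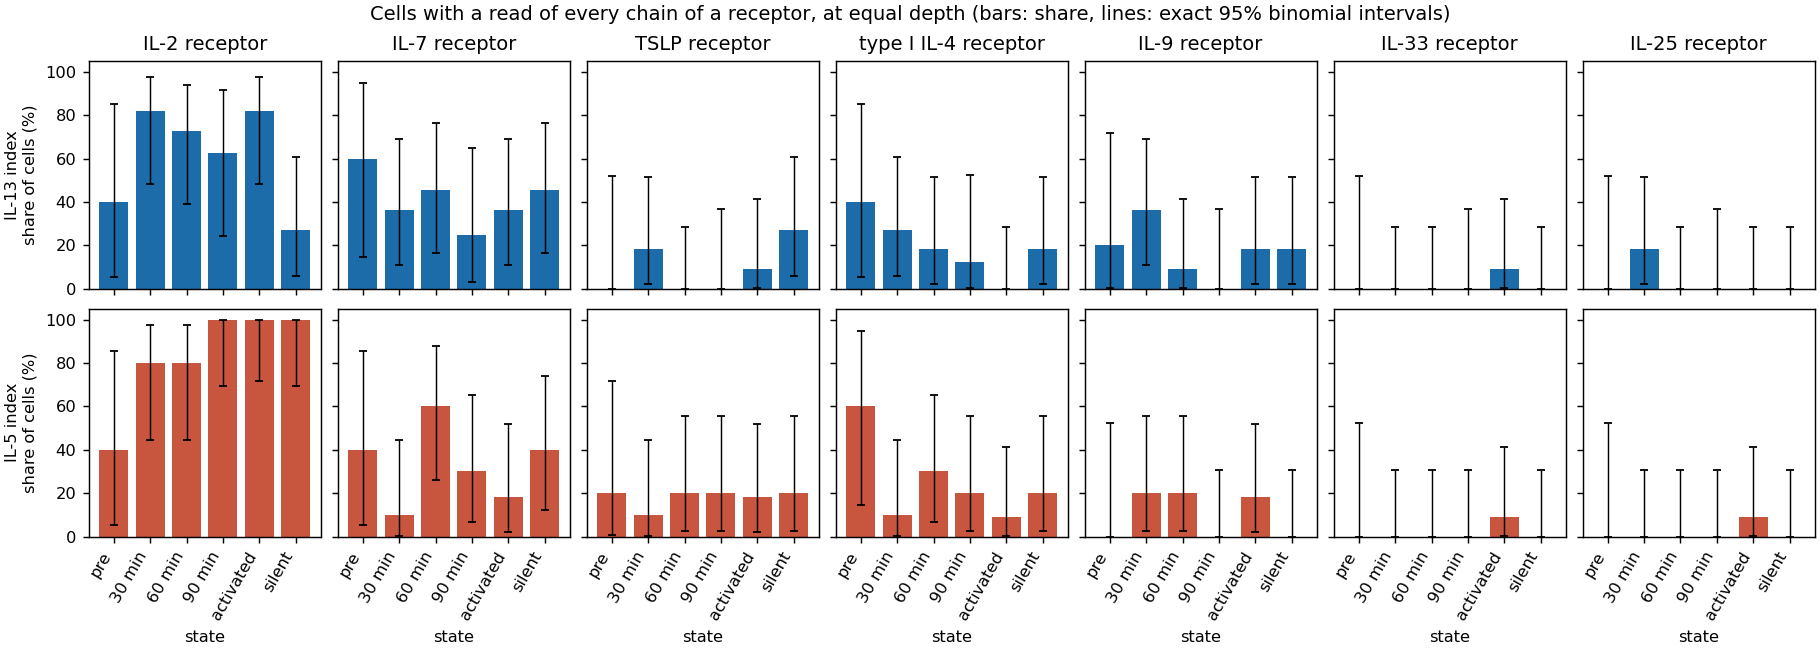
Share of cells with a read of every chain of a receptor after thinning to 100000 reads, by state and index. Bars are shares in percent, lines exact 95% binomial intervals; n is 5 before stimulation and 8 to 11 elsewhere. The IL-2 receptor is at 100% at 90 min, in activated and in silent IL-5 index cells and at 27.3% in silent IL-13 index cells.

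Il5, a cytokine that ILC2 secrete, was the gene whose levels over the 12 groups were most like those of Il2ra (Pearson r of log2(CPM + 10) = 0.93, among 6460 genes with at least 50 CPM in a group), followed by Cyp51, a sterol synthesis enzyme (0.93), and Lta, lymphotoxin alpha (0.93). Il1rl1 was most like Aplp2 (0.87), 4930453N24Rik (0.87) and Npl (0.86). Il2rb was most like Lmf2 (0.91), Il2rg most like Gm6483 (0.85), Il4ra most like Gm11942 (0.89), Il9r most like Pfkp (0.91), Il17rb most like Neb (0.85) and Il7r most like Iars (0.76). Those are the best matches out of many genes. Between the 8 members that reach that level (not Crlf2 or Il1rap), r ranged from -0.49 (Il2rg and Il7r) to 0.57 (Il1rl1 and Il2rg), with 0.55 between Il17rb and Il9r, 0.54 between Il2ra and Il2rg, 0.45 between Il2ra and Il2rb and 0.24 between Il1rl1 and Il2ra. These are descriptions over 12 groups that share pools and dates.

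A list of 9 JAK and STAT genes carries the signal of the IL-2, IL-7, IL-4, IL-9 and TSLP receptors. In activated against pre-stimulation IL-13 index cells, 4 of 8 tested were called higher and 0 lower, and in the IL-5 index 4 of 7 higher and 0 lower. Of all genes, 33.9% and 35.5% were called higher and 16.7% and 18.7% lower. In silent against pre-stimulation cells, 3 of 6 and 4 of 7 were higher and 0 lower, beside 33.4% and 33.8% of all genes called higher and 12.6% and 15.6% lower. At 30 min against pre-stimulation, 4 of 7 were higher and 1 lower for IL-13, beside 30.4% and 16.5% of all genes. For IL-5 it was 3 of 6 higher and 1 lower, beside 33.2% and 16.6%. In activated against silent cells, 2 of 8 were higher and 2 lower for IL-13, where 20.6% and 25.6% of all genes were. For IL-5 it was 2 of 7 higher and 0 lower, beside 18.9% and 21.6%. For 30 min against activated, 2 of 8 were higher at 30 min and 4 lower for IL-13, beside 23.8% and 27.5% of all genes. For IL-5 it was 1 of 7 higher and 3 lower, beside 23.8% and 21.8%. Stat5a, which acts below the IL-2 receptor, had 0 reads before stimulation in both indexes. For IL-13 as index, it was at 71.0 CPM at 30 min, 335 CPM in activated and 0.378 CPM in silent cells. Under the IL-5 index, it was at 129 CPM at 30 min, 337 CPM in activated and 200 CPM in silent cells. Jak2 of the IL-13 index was at 16.6 CPM before stimulation and at 326 CPM at 30 min, whereas in the IL-5 index it was at 133 and 229 CPM.

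Of 13 genes of IL-1 family receptor signalling, which the IL-33 receptor uses, 3 of 7 tested were called higher and 1 lower in activated against pre-stimulation IL-13 index cells, and 3 of 9 higher and 2 lower in the IL-5 index. Over all genes 33.9% were called higher and 16.7% lower in the first comparison and 35.5% and 18.7% in the second, which also holds for the lists that follow, and most of their shares lie near it. Myd88, the adaptor of this receptor family, was higher in both (1.04 and 42.0 CPM before stimulation and in activated IL-13 index cells, 12.4 and 128 CPM in the IL-5 index). Irak4, a kinase bound by MYD88, was lower in the IL-13 index (102 CPM before stimulation and 0 reads in activated cells). Among 29 other cytokine receptors, 5 of 13 tested were higher and 2 lower in activated against pre-stimulation IL-13 index cells, and 3 of 10 higher and 1 lower in the IL-5 index. Tnfrsf25, the receptor of TL1A, was at 167 CPM before stimulation and 465 CPM in activated IL-5 index cells. Among 13 lipid and neuropeptide receptors, 2 of 6 were higher and 2 lower in that comparison in each index. Ptger2, a prostaglandin E2 receptor, was higher in both, and Ramp1, a part of the CGRP receptor, was lower in the IL-13 index (506 against 106 CPM). Of the 9 ligand genes of the members, Il33, Il25, Tslp, Il7 and Il15 had 0 reads in all groups. In activated against pre-stimulation cells, Il9 and Il13 were higher in both indexes, and Il4 was higher and Il2 lower in the IL-13 index. Il2 there was at 189 CPM before stimulation and at 0 reads at 30 min. Il9 reached 44252 and 60451 CPM in activated cells of the IL-13 and IL-5 index. Its levels in single cells were uneven, from 24.4 to 154582 CPM in the first group and from 27.4 to 229067 CPM in the second.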

How the data were processed

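Single mouse ILC2 were profiled with 3' end SMART-Seq v4 libraries, 1 cell per library. The deposited tables hold unnormalized counts of reads for each gene, made by the authors with TopHat2 on mm10 and HTSeq; the strand setting and annotation release are not given in the sources used here. Summary entries that name no gene were left out of totals. Reads were summed over the cells of each of the 12 groups (index by state, from the labels), and CPM, exact Poisson, Clopper-Pearson and binomial 95% intervals were computed with Python 3.11.15, numpy 2.4.6, scipy 1.17.1 and pandas 2.3.3 (figures with matplotlib 3.10.9). Depth ran from 65 to 785198 gene reads per cell and from 964383 to 3732032 per group. Since a group is 1 sample, the tests over cells used in the study were not run, and no p-value is given. Scaling factors of edgeR 4.0.16 (TMM) and DESeq2 1.42.0 (R 4.3.3) were alternatives, beside a minimum of 5 or 50 CPM, a 4-fold threshold, the first title date alone, and leaving out each cell. The script that makes the calls was run first on simulated counts with known changes. All 10 members are described in every group, other lists by counts with up to 3 genes of the largest size past the fold per comparison, and likeness by the 3 genes with the highest Pearson r. The members and lists were chosen with earlier results of these data known. Gene positions are on GRCm38.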

Additional observations from a re-analysis of the deposited data

Results flagged for a closer look

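Single cells that stood apart were looked for in the 5-cell pre-stimulation groups, by the gap of the highest or lowest cell to the next against the whole range, on the log2(CPM + 1) scale. This marked 6 of 15 checks. Chance marks about 1 in 20 groups of evenly measured values, but where 1 cell has reads and 4 are at 0 the ratio is 1 by construction, which was so for 3 of the 6, so the number is not read against chance. Those 3 were Il9r in cell 5 of the IL-13 index (9.26 CPM), Il17rb in cell 5 of the IL-5 index (140 CPM) and Crlf2 in cell 4 of the IL-5 index (34.1 CPM). The other 3 were low cells: cell 4 of the IL-13 index with 0 CPM of Il1rl1 (next lowest 297 CPM), cell 2 of the IL-13 index with 0 CPM of Il2ra (next lowest 185 CPM), and cell 4 of the IL-5 index with 904 CPM of Il1rl1 (next lowest 1567 CPM). On the CPM scale their gaps were 0.10, 0.21 and 0.63 of the range, so these cells stand apart on the log scale alone.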

How the results depend on the processing

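No paired analysis was possible because the labels give no number said to mark a replicate shared by groups (numbers used here follow accession order) and the results come from no test. This holds for pairs of cells. The groups of an index do share its 2 title dates, except that pre-stimulation cells carry the first only. Comparisons within a date could therefore be made, and log2 ratios on single title dates are given for part of the results. In the IL-13 index, the number of members called for 30 min against pre-stimulation (4) was 2 on the first title date, where Il9r lost its call with a log2 ratio of 4.75. For activated against pre-stimulation (3) it was 1 with a 50 CPM minimum. For silent against pre-stimulation (0) it was 1 with a 5 CPM minimum, 2 on the first date and 2 against pre-stimulation cells of both indexes. For activated against silent (3) it was 5 with TMM, 5 with DESeq2 size factors, 1 with 50 CPM and 1 at 4-fold. For 30 min against activated (3) it was 0 on the first date and 5 on the second, a setting chosen after seeing the data. Il4ra and Il9r lost their calls on that first date with log2 ratios of 1.08 and 3.55. In the IL-5 index, activated against pre-stimulation (5) gave 3 with 50 CPM, silent against pre-stimulation (4) gave 2 at 4-fold, activated against silent (2) gave 1 with 50 CPM and 1 at 4-fold, and 30 min against activated (2) gave 1 with 50 CPM, 0 at 4-fold and 0 on the first date. The cause of these shifts was not tested.

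Leaving out 1 cell at a time gave, in the same order, 4 to 7, 2 to 4, 0 to 2, 2 to 5 and 2 to 4 members for the IL-13 index. For the IL-5 index the ranges were 2 to 4, 4 to 6, 2 to 5, 1 to 3, and finally 2 to 3. The extremes beyond 1.5 times the count came without pre-stimulation cell 3 (7) and activated cells 7, 8 or 11 (5) of the IL-13 index, for silent against pre-stimulation of that index without pre-stimulation cells 1, 3 or 4 (2) and silent cells 6, 7 or 9 (1, from 0), and without 30 min cell 11 or pre-stimulation cell 2 (4), silent cell 9 (2) and activated cell 1 (1) of the IL-5 index. Log2 ratios of Crlf2 changed sign in 3 cases: activated against silent of the IL-13 index on the second date (-1.62), and silent against pre-stimulation (-0.42) and 30 min against activated (0.030) of the IL-5 index on the first date. Il2ra kept its direction in the 7 comparisons under every alternative run. Depth limits the sparse members: where a member had 0 reads in a group, the exact upper limit was 1.04 to 3.83 CPM.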
